A study of Mus musculus with 11 samples.

Results

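The regions described here are the accessible sites assigned to matrix protease and inhibitor genes in fetal mouse lung epithelium. They are ATAC-seq peaks (mm10) whose nearest protein-coding gene body, at most 100 kb away, belongs to a gene named Mmp, Adamts or Adamtsl plus a number, or to Timp1, Timp2, Timp3 or Timp4. The symbol rule leaves out Mmp1a and Mmp1b. Of 981265 deposited peaks in all 11 libraries, 2928 were assigned to these genes. Of the 49 such genes among 21883 protein-coding genes in the gene table, 46 had a peak in at least 1 library. After the lists were brought to equal length and summits were joined across libraries, 267 of 83263 tested regions belonged to 41 of the genes. Adamts genes held 132 of these regions, Adamtsl genes 72, Mmp genes 47 and Timp genes 16.

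The libraries came from cells that EpCAM microbeads had captured from dissociated E17.5 lungs, 6 labelled Control and 5 labelled Prdm3/16KO. In the knockout, floxed alleles of Prdm3 (Mecom) and Prdm16, which encode zinc finger regulators of transcription, were removed by the Shh-Cre allele, which is active in the lung endoderm. Males carrying Cre, 2 floxed Prdm3 alleles and 1 floxed Prdm16 allele were bred to females homozygous for both floxed genes. Control animals are given only as Control, so their Cre status and floxed alleles are not known from the labels. It is also not stated whether each library came from a separate fetus, so the p-values measure the spread between these libraries only.

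The extracellular matrix is cut by several families of zinc-dependent enzymes. Matrix metalloproteinases (Mmp) are made as inactive precursors and as a group cleave collagens, gelatins, laminins and many other proteins, either after secretion or while anchored at the cell surface. The secreted Adamts proteases carry thrombospondin repeats and cut proteoglycans such as versican, procollagen ends and other matrix proteins, whereas Adamts-like (Adamtsl) proteins have the repeats but no protease domain. Tissue inhibitors of metalloproteinases (Timp) bind the active site of these enzymes. In the developing lung, branching and the later formation of alveoli depend on matrix turnover.

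Accessibility was measured here as a rank score. Each library's list was limited to its 72935 strongest peaks, the strongest scoring 1, the others evenly lower towards 0, and a region without a peak scoring 0. A difference is knockout minus control in this score: it is a change in a peak's place among the peaks of its library, not in the number of fragments. Because the cells were a bulk sample, fewer cells of a type and less open chromatin per cell cannot be told apart. "Rose" and "fell" are used for regions with an adjusted p below 0.05, from limma with Benjamini-Hochberg adjustment over all 83263 regions.

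In the knockout, 66 of the 267 regions fell and 47 rose. Over all regions, 37.8% were called, 20.8% falling and 17.0% rising, and for these genes the shares were 24.72% and 17.6%, so the share that rose was near that of the genome. The median difference was -0.057 over these regions and -0.0208 over all regions. The libraries' mean score over these regions was 0.396 ± 0.0203 in controls (SD, n = 6) and 0.365 ± 0.0182 in knockouts (SD, n = 5), against 0.43 ± 0.0177 and 0.41 ± 0.0129 over all regions. The share of used peaks that belonged to these genes was 0.288 ± 0.0114% in controls and 0.291 ± 0.0114% in knockouts, with each library between 0.267 and 0.307%. With the lists at their deposited lengths, 96 of 309 regions fell and 42 rose, against 24.9% and 12.0% of all regions, and with scores centred on each library's mean 59 fell and 56 rose, against 17.2% and 20.2%.

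Changes of presence were found in both directions. A peak was present in all 11 libraries at 90 of the 267 regions, against 36510 of all 83263 regions. A peak in all 6 controls and no knockout library was found at 8 regions, and a peak in all 5 knockouts and no control at 16, against 2.94% and 3.89% of all regions. The scores of the groups did not overlap at 73 of the 267 regions, against 22.9% of all regions. By Fisher's exact test on presence, 21 regions had a peak in more control libraries and 25 in more knockout libraries among the 94 that could reach significance, against 23.9% and 23.3% of such regions in the genome. Leaving out any 1 library lowered these counts to 8 to 12 and 16 to 21.

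**Figure D1:**
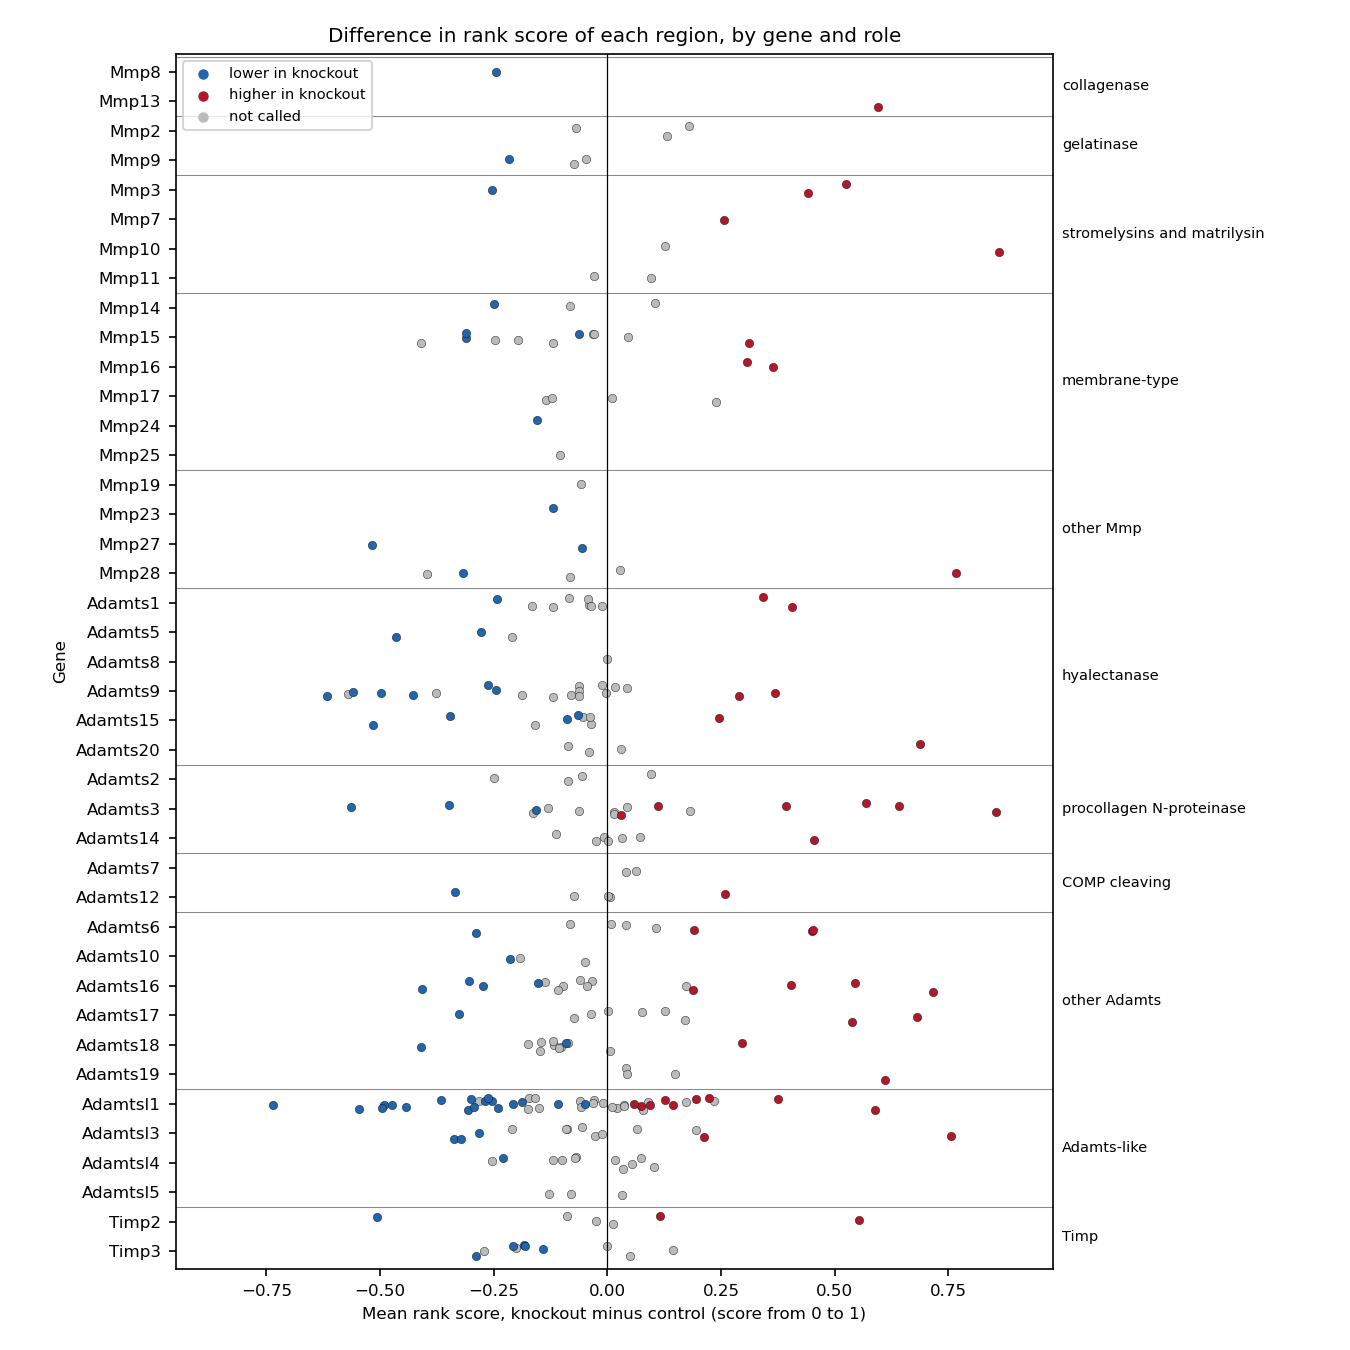
Knockout minus control difference in mean rank score (horizontal axis) for every tested region, 1 row per gene, with regions that fell, rose or were not called in separate colours. Within most genes with many regions, points lie on both sides of 0: regions fell and rose in 15 genes, only fell in 10, only rose in 7, and 9 genes had no called region.

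Read depth is not given by the files. The deposited lists held 79525 to 112297 peaks in controls and 72935 to 85704 in knockouts, and the weakest peak used had a -log10 p of 6.59 to 35.6 in controls and 2.00 to 14.0 in knockouts. Peaks within 1 kb of a gene end were present in all 11 libraries at 7 of 9 epithelial marker genes, including Epcam, Cdh1 and Foxa2, and in none at Cldn18, a claudin of alveolar type 1 cells. The summed score of the 9 was 4.86 to 5.42 in controls and 4.56 to 5.18 in knockouts. At Sftpb, a surfactant protein gene, it was 0.751 to 0.841 in controls and 0.422 to 0.673 in knockouts, without overlap. Sftpc, also a surfactant protein gene, had a peak in 4 of 6 controls and 4 of 5 knockouts, with means of 0.203 and 0.221. Mean scores were higher in knockouts at Epcam, Cdh1 and Krt8, and lower at Krt18, Nkx2-1 and Foxa2. Summed over the 6 endothelial marker genes, the score was 0.655 to 1.22 in controls and 0.275 to 0.588 in knockouts. Of these, Tek had a peak in 6 of 6 controls and 0 of 5 knockouts, Kdr had one in all 11 libraries with means of 0.452 in controls and 0.467 in knockouts, and Pecam1, Cdh5, Tie1 and Sox17 were at 0 in every library. The 6 immune markers summed to 1.04 to 1.42 in controls and 0.74 to 1.18 in knockouts, with Ptprc, Csf1r and Tyrobp at 0. Spi1 had a peak in all 11 libraries, with means of 0.69 in controls and 0.75 in knockouts. Cd68 had one in 5 of 6 controls and 0 of 5 knockouts, and Coro1a in 5 of 6 and 2 of 5. For the 8 mesenchymal markers the sums were 1.56 to 1.97 and 1.36 to 1.9, with Pdgfra, Col3a1, Tcf21 and Tbx4 at 0. Col1a1, Col1a2 and Twist1 had a peak in all 11 libraries, and Pdgfrb in 6 of 6 controls and 3 of 5 knockouts. For the 3 mesothelial markers the sums were 0 to 0.249 and 0 to 0.121, with Upk3b and Lrrn4 at 0. Wt1 had a peak in 5 of 6 controls and 1 of 5 knockouts. The part of these markers in the differences below was not tested.

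Among the 47 Mmp regions 12 fell (25.53%) and 9 rose (19.15%), and regions near neighbouring genes moved in opposite directions. On chromosome 9 a cluster of Mmp genes held 10 tested regions, of which 5 rose and 4 fell, against 17.0% and 20.8% of all regions. Regions nearest Mmp13, Mmp3, Mmp10 and Mmp7 rose, and both regions nearest Mmp27, the region in Mmp8 and the most distant of the 3 Mmp3 regions fell. Mmp13 and Mmp8 encode collagenases, Mmp3 and Mmp10 stromelysins, and Mmp7 the matrilysin, a small protease of epithelial cells.

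The 250 bases before the annotated starts of Mmp3, Mmp7, Mmp10 and Mmp13 are shown because regions near all 4 rose and because each holds the same short motifs. They are from RefSeq on GRCm38.p6, the build that mm10 names, read 5′ to 3′ on the plus strand of chromosome 9. Capitals mark every match to TGANTCA (the AP-1 motif), TATAAA (the TATA box), GGGCGG (the GC box), AAGATAA (an EVI1 motif) or CACTTG (an NKX2-1 motif) on either strand. Mmp7 has a further annotated start in the table, whose sequence (chr9:7692091-7692340, 53.2% G and C, 7 CpG pairs) holds none of these motifs and is not printed. The windows are chr9:7272264-7272513 for Mmp13, chr9:7445572-7445821 for Mmp3, chr9:7502092-7502341 for Mmp10 and chr9:7691840-7692089 for Mmp7.
Mmp13: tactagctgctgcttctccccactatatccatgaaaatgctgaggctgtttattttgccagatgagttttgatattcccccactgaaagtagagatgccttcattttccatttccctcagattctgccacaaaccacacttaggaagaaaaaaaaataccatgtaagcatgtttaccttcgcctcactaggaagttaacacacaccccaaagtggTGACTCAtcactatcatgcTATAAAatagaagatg
Mmp3: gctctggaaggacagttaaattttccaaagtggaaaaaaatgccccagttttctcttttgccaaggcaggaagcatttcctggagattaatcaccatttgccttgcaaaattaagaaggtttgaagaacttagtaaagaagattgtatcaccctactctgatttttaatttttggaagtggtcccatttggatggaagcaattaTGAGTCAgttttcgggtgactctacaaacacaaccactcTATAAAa
Mmp10: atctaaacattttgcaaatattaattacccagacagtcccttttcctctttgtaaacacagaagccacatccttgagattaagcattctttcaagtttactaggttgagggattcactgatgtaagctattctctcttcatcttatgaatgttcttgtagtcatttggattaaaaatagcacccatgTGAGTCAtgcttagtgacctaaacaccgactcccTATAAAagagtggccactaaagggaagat
Mmp7: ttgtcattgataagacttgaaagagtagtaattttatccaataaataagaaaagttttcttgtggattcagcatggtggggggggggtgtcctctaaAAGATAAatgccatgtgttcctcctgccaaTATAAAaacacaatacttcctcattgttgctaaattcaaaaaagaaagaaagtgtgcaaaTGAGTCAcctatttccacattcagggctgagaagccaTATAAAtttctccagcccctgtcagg
Because the 4 printed sequences were chosen for shared motifs, it is no finding that each holds 1 TGAGTCA or TGACTCA and at least 1 TATAAA. None holds a GC box. Among the 37 promoter entries found for 34 of the 49 genes, 6 (16.22%) hold TGANTCA, against 6.75% of 32851 promoters in the table. All 6 belong to the chromosome 9 cluster: Mmp3, Mmp7, Mmp10, Mmp13, Mmp12 and Mmp20. Mmp12 and Mmp20 had no tested region. The entries of Mmp8 and Mmp27 hold neither TGANTCA nor TATAAA. A link between these motifs and the direction of change was not tested. TATAAA was in 8 of the 37 entries (21.62%, against 12.37%), GGGCGG in 20 (54.05%, against 32.74%), AAGATAA in 1 (2.7%, against 3.1%) and CACTTG in 4 (10.81%, against 11.61%). No tested region lay at the annotated start of any gene in the cluster, so the printed windows are not the regions that changed. A match is a description of the letters only.

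The region nearest Mmp10, at chr9:7527175-7527574 and 17132 bp beyond the gene body, had no peak in any control. Its knockout scores were 0.838, 0.859, 0.882, 0.868 and 0.864. It was thus among the stronger peaks of every knockout library, and also absent from the full deposited list of every control. The difference was 0.862 (SE 0.0421, adjusted p = 1.3e-08). In the authors' deposited values its fold enrichment over background was 18.5 to 22.2 in the knockouts.

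Upstream of Mmp13, at chr9:7270035-7270434 and 2280 bp before the start, all 6 controls again had no peak. The knockout scores were 0.640, 0.467, 0.460, 0.724 and 0.683, all in the middle to upper part of the lists. The difference was 0.595 (SE 0.0604, adjusted p = 3.78e-06).

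Within Mmp3, at chr9:7453462-7453861, controls were at 0 and knockouts at 0.619, 0.590, 0.495, 0.647 and 0.273, with a difference of 0.525 (SE 0.0671, adjusted p = 3.09e-05). A neighbouring region at the far end of the gene, at chr9:7455188-7455587, was not empty in controls. There the control scores ran from 0 to 0.338 (median 0.113), and the knockout scores were 0.667, 0.506, 0.598, 0.534 and 0.640. All knockouts lay above all controls, with a difference of 0.441 (SE 0.0753, adjusted p = 0.000374), although the call was lost when peaks were ranked by fold enrichment (0.15). At Mmp7, 2456 bp before the start, control scores ran from 0 to 0.223 (median 0.0372) and knockout scores were 0.368, 0.447, 0.281, 0.494 and 0, so the groups overlapped. This rise of 0.26 (adjusted p = 0.0276) was lost in 3 other settings, with differences of 0.15 to 0.26, and when control 1 (0.25) or 3 (0.24) or knockout 1 (0.24), 2 (0.22) or 4 (0.21) was left out.

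The fall at Mmp27 lay inside the gene, at chr9:7572754-7573153. Control scores ran from 0.389 to 0.617 (median 0.517), and the knockouts scored 0, 0, 0, 0.0036 and 0. Only knockout 4 had a peak, near the end of its list, and the groups did not overlap. The difference was -0.517 (SE 0.0553, adjusted p = 6.1e-06). The second Mmp27 region, 13525 bp from the gene, was one of the strongest peaks of both groups and fell from 0.967 to 0.911 (adjusted p = 0.000605). In Mmp8, 4 of 6 controls and no knockout had a peak, and the fall of 0.25 (adjusted p = 0.0352) was lost on leaving out control 1 (-0.24), 4 (-0.20), 5 (-0.22) or 6 (-0.22) or any knockout (-0.25).

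**Figure D2:**
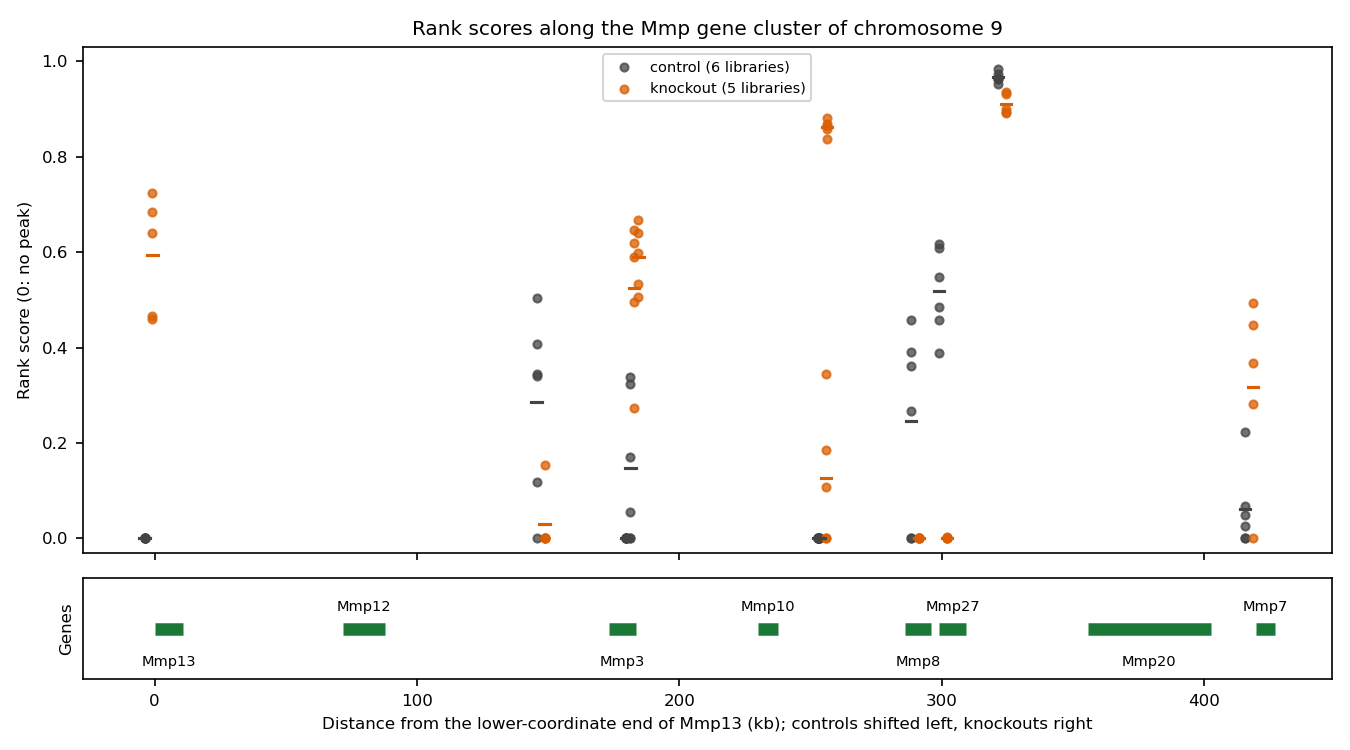
Rank score in every library (vertical axis) for the tested regions of the Mmp gene cluster against distance from the lower-coordinate end of Mmp13 in kb (horizontal axis), with control points shifted slightly to the left and knockout points to the right. Knockout points stand above empty controls near Mmp13, Mmp3 and Mmp10, while inside Mmp27 all controls stand above the knockouts, and in Mmp8 4 of 6 controls do.

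Among the other Mmp genes, Mmp28 (epilysin) had changes in opposite directions over a short distance. At chr11:83467365-83467764, 4524 bp upstream of the start, no control had a peak. The knockout scores were 0.749, 0.767, 0.824, 0.751 and 0.746, and the difference was 0.767 (SE 0.0446, adjusted p = 3.3e-08). At the start itself, chr11:83462848-83463247, control scores ran from 0.27 to 0.586 (median 0.460) and knockout scores were 0.236, 0, 0, 0.451 and 0. That region fell by 0.32 (adjusted p = 0.0136), with only knockout 4 inside the controls' range. Mmp23, at chr4:155651538-155651937 inside the gene, fell, with means of 0.784 ± 0.0353 in controls and 0.665 ± 0.0485 in knockouts, with no overlap (adjusted p = 0.00329), a call that was lost with ranking by fold enrichment (-0.09).

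The gelatinase genes Mmp2 and Mmp9, whose products cut denatured collagen and basement membrane collagen, had 6 regions, of which 1 fell. It lies 12086 bp from Mmp9, where 5 of 6 controls and 1 of 5 knockouts had a peak, and its difference was -0.217 (SE 0.0682, adjusted p = 0.0227). No region of Mmp2 passed limma's test: its 3 regions had means of 0.676, 0.428 and 0 in controls and 0.607, 0.56 and 0.179 in knockouts. By presence the last of these was called, with a peak in 0 of 6 controls and 4 of 5 knockouts (Fisher's exact test, adjusted p = 0.0321).

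Membrane-type Mmp genes, whose products act at the cell surface, had 22 regions, of which 5 fell (22.73%) and 3 rose (13.64%). Of all regions, 20.8% fell and 17.0% rose. At the start of Mmp15, chr8:95352040-95352439, control scores ran from 0.252 to 0.601 (median 0.426) and the knockout scores were 0.278, 0, 0, 0.277 and 0. Peaks were thus missing from 3 of 5 knockouts, and the other 2 lay at the low end of the controls. The difference was -0.311 (SE 0.081, adjusted p = 0.008), lost with overlapping peaks merged or ranked by fold enrichment (-0.12 in each). Inside the gene, at chr8:95358721-95359120, controls were at 0 and knockouts at 0.306, 0.338, 0.522, 0.393 and 0, a rise of 0.31 (adjusted p = 0.00549). A region 10414 bp from Mmp15 scored 0, 0.534, 0.462, 0.509, 0.529 and 0.340 in the controls and 0.105, 0, 0, 0.312 and 0 in the knockouts. Its fall of 0.31 (adjusted p = 0.0239) was lost with the 36000 strongest peaks (-0.0176) and without control 2 (-0.28) or 4 (-0.29) or knockout 2, 3 or 5 (-0.29 each). Both regions nearest Mmp16 rose. The one 40991 bp from the gene was at 0 in every control and at 0.219, 0.312, 0.508, 0.283 and 0.504 in the knockouts, with a difference of 0.365 (SE 0.062, adjusted p = 0.000358). The region at the gene end had scores from 0 to 0.458 (median 0.0753) in controls and 0.540, 0.417, 0.412, 0.579 and 0.334 in knockouts (adjusted p = 0.0154), and lost its call with the deposited list lengths (0.27), with a -log10 q of at least 5 (0.25) and with ranking by fold enrichment (0.38).

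Mmp14, the membrane-type enzyme that activates pro-Mmp2, had 1 called region, inside the gene. Its control scores ran from 0.247 to 0.674 (median 0.482) and its knockout scores were 0.370, 0.0656, 0, 0.321 and 0.291. The fall of 0.25 (adjusted p = 0.0469) was lost in 4 other settings, with differences of -0.25 to -0.07, and on leaving out control 1 (-0.21), 2 (-0.25), 3 (-0.24) or 4 (-0.23) or knockout 2 (-0.21), 3 (-0.20) or 5 (-0.27). At Mmp17 the gene-end region was strong in all 11 libraries, with means of 0.853 ± 0.0241 in controls and 0.863 ± 0.0354 in knockouts (adjusted p = 0.663).

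The starts of Mmp28 and Mmp15 are printed with those of Adamts1 and Timp3. At each of the first 3 starts a region fell, while the peak over the Timp3 start had almost the same mean in both groups. Mmp15 and Adamts1 also had a start region that was not called. Their falls did not hold with ranking by fold enrichment. Sequences, build and capitals are as above. The Mmp28 and Adamts1 sequences are from the minus strands of chr11:83463041-83463290 and chr16:85803114-85803363, and the Mmp15 and Timp3 sequences from the plus strands of chr8:95352046-95352295 and chr10:86300162-86300411.
Mmp28: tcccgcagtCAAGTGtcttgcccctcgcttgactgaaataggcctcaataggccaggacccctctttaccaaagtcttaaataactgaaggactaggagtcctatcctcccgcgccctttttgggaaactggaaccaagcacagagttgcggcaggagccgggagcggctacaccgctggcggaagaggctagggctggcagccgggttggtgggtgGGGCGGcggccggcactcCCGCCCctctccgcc
Mmp15: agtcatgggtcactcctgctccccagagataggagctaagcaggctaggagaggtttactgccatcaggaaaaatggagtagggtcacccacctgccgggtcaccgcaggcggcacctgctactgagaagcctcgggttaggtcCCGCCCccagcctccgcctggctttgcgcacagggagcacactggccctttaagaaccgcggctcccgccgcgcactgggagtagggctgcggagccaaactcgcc
Adamts1: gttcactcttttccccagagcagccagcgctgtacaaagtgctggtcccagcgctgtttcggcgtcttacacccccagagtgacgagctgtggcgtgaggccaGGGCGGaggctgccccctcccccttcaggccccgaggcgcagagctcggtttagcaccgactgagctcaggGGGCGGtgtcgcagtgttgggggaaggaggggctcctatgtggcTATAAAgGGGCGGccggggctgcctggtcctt
Timp3: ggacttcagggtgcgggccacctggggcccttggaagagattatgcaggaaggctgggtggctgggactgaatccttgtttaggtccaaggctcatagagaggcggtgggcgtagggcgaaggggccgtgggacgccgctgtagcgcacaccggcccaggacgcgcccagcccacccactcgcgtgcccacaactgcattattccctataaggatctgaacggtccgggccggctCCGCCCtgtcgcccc
These 4 are richer in G and C than the 4 printed chromosome 9 sequences, at 62 to 65.6% against 37.2 to 40.4%, and hold 14 to 18 CpG pairs against 0 or 1. The median G and C content was 62% over the 37 entries and 52.4% over all 32851 promoters. Each of the 4 holds at least 1 GC box on either strand and none holds TGANTCA.

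Adamts genes had 26 regions that fell (19.7%) and 25 that rose (18.94%) among 132, against 20.8% and 17.0% of all regions. The 47 regions of the hyalectanase genes, whose products cut versican and related proteoglycans, included 13 that fell (27.66%) and 6 that rose (12.77%). Adamts9, whose product clears versican from tissues during development, had 20 regions, of which 6 fell and 2 rose. Upstream of Adamts9, at chr6:92978998-92979397 and 34747 bp beyond the gene body, control scores ran from 0.585 to 0.648 (median 0.611). No knockout had a peak there, in the lists used or as deposited. The difference was -0.616 (SE 0.0444, adjusted p = 1.77e-07). At the start of the gene the means were 0.787 ± 0.0342 in controls and 0.708 ± 0.0678 in knockouts (adjusted p = 0.0523). In an intragenic region, chr6:92854277-92854676, the 6 control scores were 0.911, 0.950, 0.936, 0.921, 0.120 and 0.921, with control 5 far below the others, and the knockout scores were 0.284, 0.352, 0.289, 0.0466 and 0.193. That fall of 0.56 (adjusted p = 0.00764) turned to a difference of 0.15 with lists as deposited and to 0.0006 with a -log10 q of at least 5, and was lost with overlapping peaks merged (-0.0036) or ranked by fold enrichment (-0.45).

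Adamts15 showed a loss close to the gene. At chr9:30896764-30897163, 2192 bp from the gene body, control scores ran from 0.468 to 0.575 (median 0.517) and every knockout was at 0. The difference was -0.516 (SE 0.047, adjusted p = 1.38e-06). At its gene end the means were 0.805 ± 0.0297 in controls and 0.716 ± 0.0423 in knockouts (adjusted p = 0.00815), a call that was lost with ranking by fold enrichment (-0.04). Adamts5, a main aggrecan-cutting enzyme, had 3 regions, of which 2 fell. Inside the gene, at chr16:85899250-85899649, control scores ran from 0.395 to 0.670 (median 0.594) and knockout scores were 0, 0, 0.167, 0 and 0.283, without overlap. The difference was -0.464 (SE 0.0735, adjusted p = 0.0002). At its gene end, control scores from 0.361 to 0.683 (median 0.523) stood above the knockout scores of 0.226, 0.317, 0.242, 0.104 and 0.295, a fall of 0.28 (adjusted p = 0.00378) that was lost with ranking by fold enrichment (-0.05) and with only the 36000 strongest peaks (-0.09).

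Adamts1 moved in opposite directions at its start and downstream. At the start, chr16:85802995-85803394, control scores ran from 0.496 to 0.633 (median 0.616), all above the knockout scores of 0.0986, 0.428, 0.332, 0.464 and 0.443. This fall of 0.24 (adjusted p = 0.00903) became a difference of 0.03 when peaks were ranked by fold enrichment. At chr16:85756109-85756508, 37519 bp beyond the gene body, a peak was present in all libraries and stronger in every knockout, with scores of 0.964, 0.968, 0.966, 0.954 and 0.973, than in the controls, from 0.561 to 0.691 (median 0.609). The difference was 0.343 (SE 0.0224, adjusted p = 7.69e-08). For Adamts20, which also cuts versican, a region 18275 bp from the gene had a score of 0.0093 in control 1 and 0 in the other 5 controls (2 controls had a peak in the deposited lists). Its knockout scores were 0.702, 0.797, 0.57, 0.738 and 0.641, with a difference of 0.688 (SE 0.0527, adjusted p = 3.02e-07).

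The procollagen N-proteinase genes encode enzymes that remove the amino-terminal ends of fibrillar procollagens. Of their 27 regions, 7 rose (25.93%) and 3 fell (11.11%), against 17.0% and 20.8% of all regions. Adamts3, which also takes part in the activation of the lymphatic growth factor VEGF-C, held 6 of the 7 rises in 16 regions. At chr5:89864808-89865207, 18327 bp downstream of the start, the 6 control scores were 0.118, 0.0384, 0, 0, 0 and 0. The knockout scores were 0.889, 0.874, 0.883, 0.862 and 0.892, among the strongest peaks of each library. The difference was 0.854 (SE 0.0445, adjusted p = 1.67e-08). At 3 further regions inside Adamts3 no control and every knockout had a peak, with knockout means of 0.64, 0.57 and 0.394. An intragenic region at chr5:89844296-89844695 moved the other way, from control scores of 0.459 to 0.784 (median 0.594) to knockout scores of 0, 0.150, 0, 0.0857 and 0. Its difference was -0.563 (SE 0.0669, adjusted p = 1.57e-05). The peak at the Adamts3 start had means of 0.51 ± 0.262 in controls and 0.693 ± 0.0687 in knockouts and was not called (adjusted p = 0.201).

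Adamts14 rose at 1 intragenic region, chr10:61248630-61249029, where the 6 controls scored 0.598, 0.398, 0.538, 0.447, 0 and 0 and the knockouts 0.769, 0.846, 0.757, 0.797 and 0.753. Controls 5 and 6 had no peak and all knockouts lay above all controls. The difference was 0.454 (SE 0.105, adjusted p = 0.00384), and the call was lost with ranking by fold enrichment (0.42). No region of Adamts2 was called, and its start had means of 0.746 ± 0.0633 in controls and 0.690 ± 0.0257 in knockouts (adjusted p = 0.17).

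Adamts12 and Adamts7 encode the proteases that cut cartilage oligomeric matrix protein, and 1 of their 7 regions fell and 1 rose. Inside Adamts12, at chr15:11151024-11151423, control scores ran from 0.212 to 0.419 (median 0.354), and knockout 1 scored 0.0581 with the other 4 knockouts at 0. The difference was -0.335 (SE 0.0529, adjusted p = 0.000196). At Adamts7 the gene-end peak was strong in both groups, with means of 0.843 ± 0.0475 in controls and 0.884 ± 0.019 in knockouts (adjusted p = 0.135).

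The remaining Adamts genes had 11 regions that rose (21.57%) and 9 that fell (17.65%) among 51, against 17.0% and 20.8% of all regions. Several of the rises were peaks absent from every control and far from a gene end. Near Adamts16, at chr13:70693383-70693782 and 34216 bp from the gene, controls were at 0 and the knockouts scored 0.806, 0.777, 0.627, 0.674 and 0.695, with a difference of 0.716 (SE 0.0501, adjusted p = 1.37e-07). Inside Adamts17, whose product is tied to fibrillin microfibrils, the region chr7:67048410-67048809 was at 0 in controls and at 0.639, 0.743, 0.683, 0.703 and 0.632 in knockouts, with a difference of 0.680 (SE 0.0466, adjusted p = 1.13e-07). The Adamts17 start, 208874 bp away, was one of the strongest peaks of every library, with means of 0.959 ± 0.0078 in controls and 0.961 ± 0.013 in knockouts (adjusted p = 0.887). Near Adamts19, 42813 bp from the gene, controls were at 0 and knockouts at 0.562, 0.411, 0.732, 0.571 and 0.776, with a difference of 0.611 (SE 0.0657, adjusted p = 6.53e-06). Adamts6, which acts on fibrillin-associated matrix, gained at its gene end, from control scores of 0.662 to 0.759 (median 0.711) to knockout scores of 0.884, 0.926, 0.893, 0.904 and 0.902. The difference was 0.190 (SE 0.02, adjusted p = 5.36e-06). A fall was found inside Adamts18, at chr8:113713808-113714207, where control scores ran from 0.374 to 0.512 (median 0.477), knockout 3 scored 0.219 and the other 4 knockouts had no peak. Its difference was -0.410 (SE 0.06, adjusted p = 0.000101). Near Adamts10, which acts on fibrillin microfibrils, a region 19907 bp from the gene fell, with means of 0.720 ± 0.0652 in controls and 0.505 ± 0.111 in knockouts, with knockout 5 at 0.701 within the controls' range (adjusted p = 0.00419).

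With only the 36000 strongest peaks of each library, the falls at the named regions of Adamts15 (-0.04), Adamts18 (-0.0028), Adamts3 (-0.23) and Mmp27 (-0.09) were not called, while the rises at Mmp10 (0.72), Mmp28 (0.53) and Adamts3 (0.76) were. Calls that held there had smaller differences at Adamts9 (-0.22), Mmp13 (0.21), Mmp3 (0.14 and 0.17), Adamts5 (-0.16), Adamts16 (0.42), Adamts17 (0.35), Adamts19 (0.25) and Adamts20 (0.37). They had larger ones at Adamts1 (0.69), Adamts6 (0.38) and Adamts10 (-0.35). Scores were spread over the shorter list, so the same step in rank is a larger step in score. The difference was 2.026 times the main one at Adamts1, 2.025 times at Adamts6 and 1.647 times at Adamts10. Differences with the 36000 strongest peaks are thus not on the main scale, and the larger ones do not show a stronger change. With ranking by fold enrichment, calls held with larger differences at Adamts12 (-0.56), Mmp16 (0.57) and Adamts6 (0.30) and a smaller one at Adamts5 (-0.23).

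**Figure D3:**
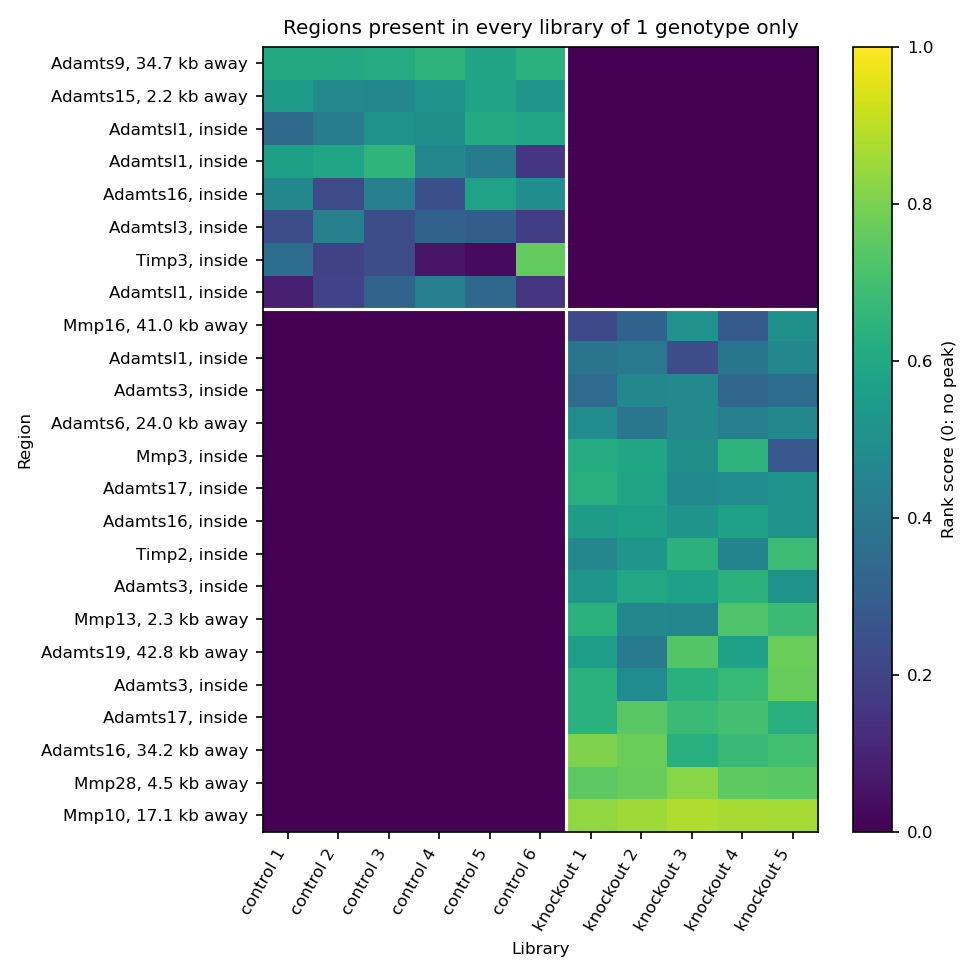
Rank score in every library at the 24 regions with a peak in all controls and no knockout, or the reverse, in lists of equal length. The 16 knockout regions reach mean scores of 0.862 at Mmp10 and 0.767 at Mmp28, and the 8 control regions reach 0.616 at Adamts9.

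Adamtsl genes had 22 falls (30.56%) and 11 rises (15.28%) among 72 regions, against 20.8% and 17.0% of all regions. Adamtsl1, which encodes a punctin found in matrix, is a gene of 914.54 kb and held 45 regions, of which 18 fell and 9 rose. At chr4:85920434-85920833 control scores ran from 0.664 to 0.823 (median 0.771). Knockout 1 scored 0.0683 and the other 4 had no peak. The difference was -0.736 (SE 0.0483, adjusted p = 7.98e-08). At chr4:85939499-85939898, control scores from 0.348 to 0.612 (median 0.505) stood against 0 in every knockout, with a difference of -0.496 (SE 0.0577, adjusted p = 1.3e-05), a call that was lost with only the 36000 strongest peaks (-0.06). At chr4:85740487-85740886, control scores from 0.522 to 0.671 (median 0.596) stood above knockout scores of 0.198, 0.192, 0, 0.131 and 0, with a difference of -0.491 (SE 0.0584, adjusted p = 1.6e-05) that shrank to -0.18 with the 36000 strongest peaks and lost its call with ranking by fold enrichment (-0.11). At chr4:85880849-85881248 the 6 controls scored 0.738, 0, 0.893, 0.826, 0.0145 and 0.811 and every knockout was at 0, so controls 2 and 5 were at or near the knockouts. That fall of 0.55 (adjusted p = 0.021) was only -0.10 with lists as deposited, and was lost with a -log10 q of at least 5 (-0.04). Deposited control peaks with their summit in this window were weak, with a fold enrichment of 2.58 to 3.36. Their -log10 p was 9.8, 8.9, 14.4 and 10.0 in controls 1, 3, 4 and 6, below the weakest peak used there (27.5, 10.4, 28.6 and 35.6). The scores of those controls are thus those of an overlapping peak with its summit outside the window. The rise with the highest difference in the gene was at chr4:86308760-86309159, where 4 controls had scores of 0.22 to 0.423, controls 5 and 6 were at 0, and the knockouts scored 0.807, 0.764, 0.761, 0.783 and 0.763. Its difference was 0.589 (SE 0.0715, adjusted p = 1.94e-05), or 0.35 with ranking by fold enrichment. At chr4:86126519-86126918 controls were at 0 in the lists used, 1 control had a peak in its deposited list, and knockouts scored 0.385, 0.404, 0.235, 0.387 and 0.467.

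**Figure D4:**
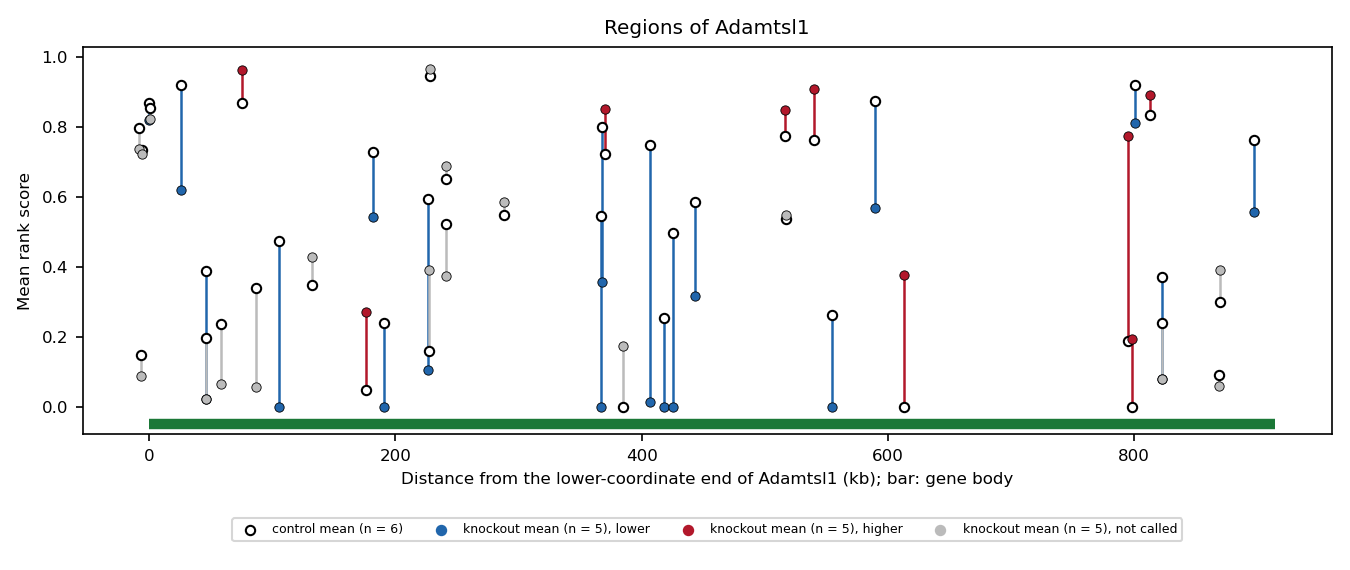
Rank score of the regions assigned to Adamtsl1 by group against distance along the gene in kb. Falls and rises lie among each other along the gene body, and 6 regions with mean control scores of 0.240 to 0.547 are at 0 in all knockouts. The mean of 0.547, at chr4:85880849-85881248, includes scores of an overlapping peak with its summit outside that window.

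In Adamtsl3, at chr7:82442500-82442899, the 6 controls scored 0.0576, 0.135, 0, 0.014, 0 and 0 and the knockouts 0.767, 0.831, 0.803, 0.758 and 0.790. All knockouts were far above all controls, with a difference of 0.755 (SE 0.0479, adjusted p = 6.11e-08). At Adamtsl4, whose product binds fibrillin, a region at the start, 371 bp from the gene body, had control scores from 0.234 to 0.488 (median 0.351) and knockout scores of 0.180, 0.103, 0.197, 0.0468 and 0.157. This fall of 0.23 (adjusted p = 0.00985) was lost with ranking by fold enrichment (-0.16) and turned to 0.05 when overlapping peaks were merged. Adamtsl5 had no called region, and Adamtsl2 had no tested region.

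Of the inhibitors, Timp2 and Timp3 had tested regions and Timp1 and Timp4 had none. Of the 16 Timp regions 6 fell (37.5%) and 2 rose (12.5%), against 20.8% and 17.0% of all regions. Timp3 encodes the inhibitor that stays bound to the matrix. Its start, chr10:86300292-86300691, scored from 0.784 to 0.883 (median 0.819) in controls and 0.794, 0.823, 0.802, 0.844 and 0.855 in knockouts, with means of 0.824 ± 0.0379 in controls and 0.823 ± 0.0262 in knockouts and a difference of -0.0001 (SE 0.0198, adjusted p = 0.998). Of the 10 Timp3 regions, all inside the gene or at its start, 5 fell and none rose. At chr10:86339531-86339930, control scores ran from 0.545 to 0.733 (median 0.584) and knockout scores were 0.487, 0.407, 0.373, 0.340 and 0, without overlap. The fall of 0.29 (adjusted p = 0.00853) was lost with ranking by fold enrichment (-0.07). So were the falls at chr10:86339037-86339436 (-0.075, adjusted p = 0.0165 in the main fit) and chr10:86344644-86345043 (-0.0075, adjusted p = 0.0472 in the main fit). Both were also lost with replicate number as a block in the fit (-0.20 and -0.21). The latter was lost too with no filter on libraries (-0.21), with scores centred (-0.19) and without control 1, 3, 4, 5 or 6 or knockout 1, 2 or 3. All 10 Timp3 regions also lie inside Syn3, so their assignment is shared with that gene.

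Timp2, the inhibitor that also takes part in the activation of pro-Mmp2 by Mmp14, had a strong start peak with means of 0.752 ± 0.0383 in controls and 0.727 ± 0.0834 in knockouts (adjusted p = 0.614). Inside the gene a peak was lost and another gained. At chr11:118327577-118327976, 27635 bp from the start, control scores ran from 0.488 to 0.611 (median 0.533) and knockout scores were 0, 0, 0.0695, 0.127 and 0, with a difference of -0.507 (SE 0.0513, adjusted p = 3.69e-06). At chr11:118342445-118342844, 12767 bp from the start, all controls were at 0 and the knockouts scored 0.462, 0.524, 0.644, 0.45 and 0.684, with a difference of 0.553 (SE 0.0567, adjusted p = 4.13e-06). A region 5877 bp upstream of the start had control scores from 0.433 to 0.612 (median 0.570) and knockout scores of 0.662, 0.709, 0.669, 0.691 and 0.615. Its rise of 0.11 (adjusted p = 0.0265) was lost with lists as deposited (0.05), with a -log10 q of at least 5 (0.05), with ranking by fold enrichment (0.04) and without knockout 2 (0.10) or 4 (0.11). The calls of the intragenic pair were lost with only the 36000 strongest peaks (-0.09 and 0.13).

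No region was called for 9 genes: Mmp2, Mmp11, Mmp17, Mmp19, Mmp25, Adamts2, Adamts7, Adamts8 and Adamtsl5. Of these, Adamts8, another hyalectanase gene, had gene-end scores from 0.234 to 0.416 (median 0.290) in controls and 0.463, 0.311, 0.411, 0.353 and 0 in knockouts (adjusted p = 0.989). At the start of Mmp11, a stromelysin gene first known from tumour stroma, 2 controls and 3 knockouts had a peak in the lists used. In the deposited lists these were 3 and 3. The mean scores were 0.0198 ± 0.0397 in controls and 0.115 ± 0.107 in knockouts (adjusted p = 0.146). A further 8 genes had no tested region. Deposited peaks existed near Adamts4, Adamtsl2, Mmp12, Timp1 and Timp4 in 1 to 4 libraries each, and no library had one near Adamts13, Mmp20 or Mmp21.

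By position, 8 of the 49 regions at an end of their own gene fell and 3 rose, against 9.64% and 6.59% of all gene-end regions. Inside gene bodies 42 of 140 fell and 28 rose, against 24.9% and 19.1%, and between genes 16 of 78 fell and 16 rose, against 23.0% and 19.5%. In the shares over all regions, a gene end is that of any gene, so the classes compared are not fully alike. Of the 29 regions at an annotated start, 5 fell and none rose: those of Adamts1, Adamtsl4, Mmp15, Mmp24 and Mmp28. Adamts1, Adamtsl4 and Mmp15 also had a start region that was not called. The Mmp24 fall of 0.15 (adjusted p = 0.0481) was lost with no filter on libraries (-0.15), with scores centred (-0.13), with limma lacking its trend and robust options (-0.15), and on leaving out any library except knockouts 1 and 5, with differences of -0.16 to -0.11. The rule's distance limit fell between a region 96721 bp from Adamts15, with mean scores of 0.606 and 0.851 in the control and knockout libraries, and a region 109811 bp from Adamts20, with 0.325 and 0.

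When the scores of all regions of a gene were averaged, 12 of the 41 genes fell and 10 rose, against 18.0% and 10.8% of 16378 genes. The 12 were Mmp27, Adamts9, Adamts5, Adamts15, Timp3, Mmp23, Adamtsl1, Mmp15, Mmp9, Adamts18, Adamts10 and Mmp8, and the 10 were Mmp10, Mmp13, Mmp16, Adamts17, Mmp3, Adamts6, Adamts20, Adamts3, Adamts19 and Mmp7. The mean of the 2 Mmp10 regions was 0 in controls and 0.495 ± 0.069 in knockouts (SD, n = 5, adjusted p = 5.95e-07), and the difference without knockout 1, 2 or 5 was 0.868, 0.863 or 0.862, when only 1 of its regions was tested. The mean of the 20 Adamts9 regions was 0.47 ± 0.0391 and 0.298 ± 0.025 (adjusted p = 0.000205), and that of the 10 Timp3 regions 0.448 ± 0.0423 and 0.32 ± 0.0062 (adjusted p = 0.00122). The mean of the 16 Adamts3 regions rose from 0.509 ± 0.0243 to 0.599 ± 0.0166 (adjusted p = 0.00681). With lists as deposited, 5 genes rose. There the calls of Adamts3 (difference 0.0272), Adamts6 (0.0556), Adamts17 (0.0597), Mmp7 (0.15), Mmp15 (-0.0952) and Adamts20 (0.152) were lost, the last with no smaller difference than before (0.147). Leaving out 1 library ended the call of Adamts10 (controls 1 to 5, knockouts 1 and 4, differences -0.16 to -0.14), Adamts18 (controls 2, 3 and 6, knockouts 1, 2, 4 and 5, -0.11 to -0.08), Mmp15 (controls 2, 4 and 6, knockouts 2 and 5, -0.12 to -0.10), Mmp9 (controls 1, 2 and 5, knockouts 2, 4 and 5, -0.11 to -0.09) and Mmp7 (controls 1, 3, 5 and 6, knockouts 1, 2 and 4, 0.21 to 0.25), and of Mmp8 as given for its only region.

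**Figure D5:**
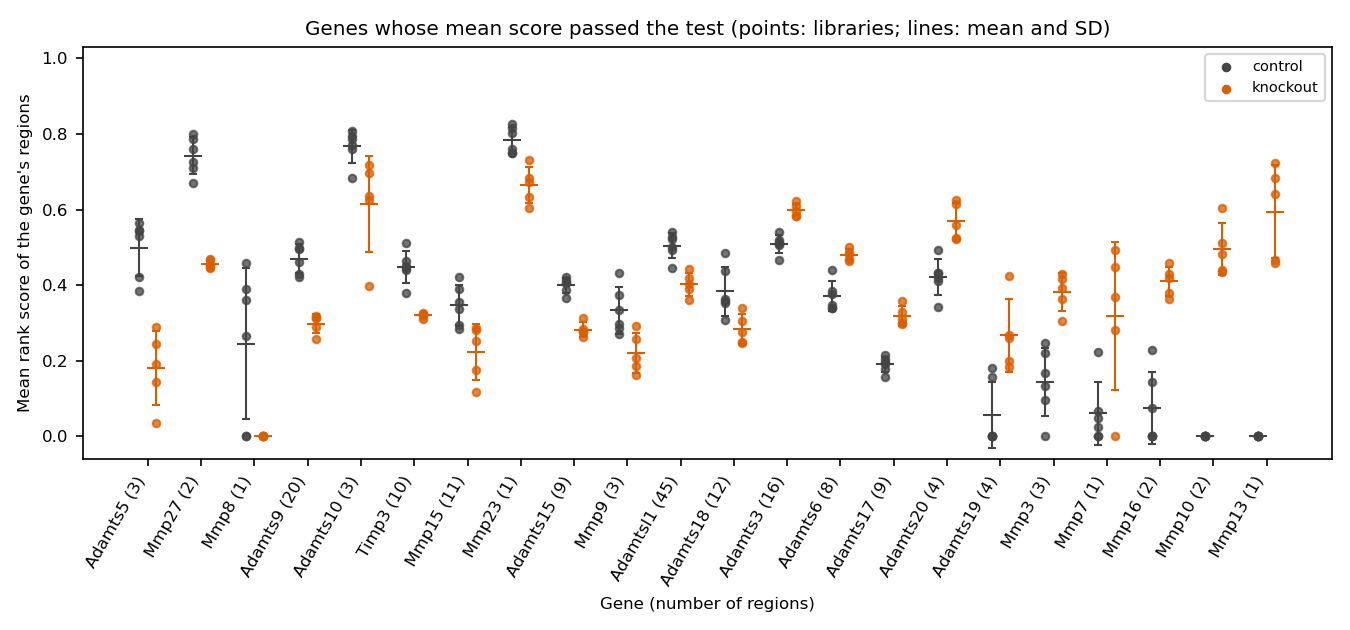
Mean rank score over all regions of a gene, 1 point per library, for the genes called by limma. For Mmp10 and Mmp13 the controls are at 0 and all 5 knockouts above, and for Adamts9, Adamts5 and Timp3 all 6 controls lie above all 5 knockouts.

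Other genes of matrix turnover gave shares of falls close to that of the protease and inhibitor genes. Among 223 regions of partners of matrix proteolysis, such as proprotein convertases, Adam proteases and the plasminogen system, 56 fell and 39 rose. Over all regions 20.8% fell and 17.0% rose. Serpine2, an inhibitor of serine proteases, had the most called regions of this list, with 8 falls and 2 rises in 12. Among 169 regions of substrates 42 fell and 34 rose, and the most called regions were those of Fbn2, a fibrillin of microfibrils, with 2 falls and 6 rises in 13, and of Tnc, which encodes tenascin C, with 4 falls and 4 rises in 13. Collagen genes had 61 falls and 42 rises in 245 regions, and genes matched by laminin or integrin symbols 70 falls and 45 rises in 251, of which Itgb1bp2 and Itgb3bp, which bind integrins but are none, gave 1 fall and 1 rise. The shares that fell, 25.11%, 24.85%, 24.9% and 27.89%, stand beside 24.72% for the protease and inhibitor genes, and no test of a difference between these lists was made.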

How the data were processed

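ATAC-seq peak lists of 11 libraries, 6 control and 5 knockout, were used. Per the submitters' processing notes, the build was mm10 and the tools included MACS2, deepTools and DiffBind 3. What each tool did, the aligner and the options were not given in the sources used here. Per the file layout, each list was deposited for 1 library and holds a score without a unit (not used), a fold enrichment (a ratio over background), and a -log10 p and -log10 q per peak. The fold enrichment, -log10 p and -log10 q values are the authors' and depend on read depth, which is unknown.

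The 49 genes and all lists were chosen with earlier results of these data known. Peaks were ranked by -log10 p and the top 72935 of every list, as many as the shortest holds, were scored. Windows of 400 bp were centred on summits, the best-ranked kept, and a library had a region if a peak overlapped it by at least 100 bp. Its score was that of the best used peak with its summit in the window or, failing that, of the best overlapping peak. Those present in 3 or more libraries were tested with limma 3.58.1 (trend and robust, genotype only) in R 4.3.3, and by two-sided Fisher's exact tests on presence (scipy 1.17.1), with Benjamini-Hochberg adjustment over all regions or genes tested and a threshold of 0.05. Genes came from RefSeq tables of GRCm38.p6. A gene end is within 1 kb; strand was known for the 34 genes with a promoter entry and not for the other 15. Regions inside several gene bodies counted if any was a member, as for 11 regions. Shifting the summits of control 1 by 50000 bp lowered the share within 1 kb of a gene end from 27.7 to 4.92%, a check of the build.

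Values per library are given for most regions of a rule: the 4 called regions with the largest falls and rises of each family, the region with the smallest p of each called gene, and the strongest gene-end region of each gene. In the lists of partners and substrates, the genes with the most called regions are named. Other regions of the Mmp cluster and of Mmp2 and Adamts3, given as means, were chosen after their values were seen. Whether replicate numbers pair the libraries is not known, and the main fit did not use them. Alternatives to list length, ranking, overlap, filter, scaling, fit and gene assignment were tried, and each library was left out in turn.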

Additional observations from a re-analysis of the deposited data

Results flagged for a closer look

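Of 154 groups of library values examined, 17 had a highest or lowest library set apart from the rest of its group by Dixon's criterion. For normally distributed values, chance meets this criterion in about 1 of 20 groups. Scores here have a floor for libraries without a peak, so the 17 cannot be judged against that rate. Groups in which no library had a peak, such as the controls at the region nearest Mmp10, cannot meet the criterion. Of the 17, 4 were in control 1, 3 each in knockouts 1 and 3, 2 each in control 4 and knockout 4, and 1 each in controls 5 and 6 and knockout 5.

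At 7 regions a single library had a peak in the lists used that the rest of its group lacked. Such a group always meets the criterion. In the knockout group these were knockout 1 at the intragenic regions of Adamts12 (0.0581) and Adamtsl1 (0.0683) and near Mmp9 (0.141), knockout 3 inside Adamts18 (0.219), and knockout 4 inside Mmp27 (0.0036) and Timp3 (0.168). In the control group it was control 1 near Adamts20 (0.0093), where 2 controls had a peak in the deposited lists.

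The low score of control 5 inside Adamts9 was 0.12, while the other controls scored 0.911 to 0.95. Those other controls were scored from an overlapping peak with its summit outside the window, and control 5 from a peak with its summit inside. Near Mmp15, 10414 bp from the gene, control 1 had no peak (0) and the others scored 0.34 to 0.534. At the Adamts1 start control 1 scored 0.496 against 0.583 to 0.633, and upstream of Timp2 control 6 scored 0.433 against 0.547 to 0.612.

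High values were found for control 1 inside Adamts3 (0.118, others 0 to 0.0384) and for control 4 upstream of Mmp7 (0.223, others 0 to 0.0681), the latter being both the region and the only region of the gene. Knockout 3 was high upstream of Mmp28 (0.824, others 0.746 to 0.767), and knockout 5 near Adamts10 (0.701, others 0.433 to 0.478). In the mean over the Adamts10 regions, knockout 3 was low (0.398, others 0.626 to 0.719).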

How the results depend on the processing

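Of 54 called regions with values per library, 45 kept direction and call whichever library was left out. In the other settings, 23 kept both wherever they had a matching region, and not all did. With 36000 peaks per list only 36 of the 54 had one, with a peak in at least 5 libraries 52, and with ranking by fold enrichment 53. Falls that turned to a positive difference were those inside Adamts9 (0.15 with lists as deposited, 0.0006 with a -log10 q of at least 5), at the Adamts1 start (0.0276 when ranked by fold enrichment) and at Adamtsl4 (0.054 with overlapping peaks merged). Inside Adamts9 the scores used for all controls but control 5 were those of an overlapping peak with its summit outside the window. For the other falls that turned, the cause was not tested. Among 20 regions that were not called, the sign of the difference turned at 7 on leaving out a library and at 8 in other settings.

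With 36000 peaks per list, fewer regions were tested (128), of which 33 fell and 28 rose, and by presence 13 had more controls and 13 more knockouts. With a -log10 q of at least 5, 91 of 290 fell and 40 rose. Leaving out 1 library gave 58 to 72 falls and 44 to 52 rises by limma, 8 to 12 and 16 to 21 by presence, where fewer libraries leave fewer regions that can reach significance, and 8 to 11 and 9 to 10 genes. With lists as deposited 5 genes rose (cause not tested).

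Deviations of same-numbered control and knockout libraries had correlations of 0.0527, -0.0008, -0.0238, 0.0036 and 0.139. Controls 1 and 5 correlated best with the knockout of their own number, and controls 2, 3 and 4 with another. So few pairs cannot show whether the numbers pair the libraries. With the replicate block, 7 of the 54 called regions, Mmp24 among them (-0.15), lost their call, 59 regions fell and 43 rose, and 7 genes fell and 9 rose. Depth is unknown, and a weak peak missing from a shallower library scores 0.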
